A study of Mus musculus with 20 samples.

Results

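The major histone gene cluster of the mouse, together with the tRNA genes beside it, lies on chromosome 13. It was taken as chr13:21200001-23950000 of the mm9 build, a stretch of 2.75 Mb. Its members are the peaks that overlap this stretch in the 12 peak lists of a chromatin immunoprecipitation (ChIP-seq) series, 1493 of 1324083 peaks in all. The 3 Mb on each side held another 2066. The cells were embryonic fibroblasts (MEFs) grown from E13.5 C57BL/6 embryos and fixed at passage 4 while cycling, either wild type (WT) or of the genotype Rb1L/L. The L allele is a germline mutation of the retinoblastoma protein pRb in the cleft that binds LXCXE motifs, and every cell of an Rb1L/L culture carries it. The 4 antibodies used in each genotype were an in-house antibody to CAP-D3 and commercial ones to CAP-H2, to TFIIIC-220 and to H3K27me3. CAP-D3 and CAP-H2 have 1 library per genotype and so no replicate, and TFIIIC and H3K27me3 have 2 per genotype. Cells were fixed with EGS, a long crosslinker, and then formaldehyde for H3K27me3, CAP-D3 and CAP-H2, and with formaldehyde alone for TFIIIC. Whether libraries came from separate cultures is not stated in the labels, and p-values therefore reflect only how much these libraries vary, possibly for technical reasons. The series title sets its question as how pRb places condensin II at promoters and at divergently paired genes.

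Condensin II is a ring-shaped complex that compacts chromosomes. CAP-D3 and CAP-H2 are its own non-SMC subunits, which condensin I lacks. TFIIIC binds the internal promoters of tRNA genes, where it brings in TFIIIB and RNA polymerase III, and it also sits at other sites without the polymerase. H3K27me3 is the mark that Polycomb repressive complexes leave on silent chromatin. The replication-dependent histone genes of this cluster are transcribed by RNA polymerase II in S phase, many of them as divergent pairs that share a short promoter.

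The order of the genes is known from the RefSeq table of another build, GRCm38.p6, which gave names and neighbours only. Chromosome 13 held 56 histone genes there, from H2bc13 at one end to H2ac1 at the other, and 105 of the 430 tRNA genes in the table. A single long stretch without a histone gene, between H2bc11 and H4c8, parted 24 histone genes from the other 32. It held 147 genes, among them 75 Vmn1r genes and pseudogenes, which encode vomeronasal pheromone receptors, and 46 tRNA genes. Of these tRNA genes, 1 lay before the first Vmn1r gene of the stretch, 0 lay among the Vmn1r genes and 45 lay after the last. A further 31 tRNA genes lay among the first 24 histone genes, 28 lay before H2bc13, and 0 lay after that stretch. Peaks could not be placed on these genes, since gene positions of mm9 were not used here, and markers of fibroblasts were not checked for the same reason.

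Neighbouring histone genes formed 11 divergent pairs, mostly an H2A gene beside an H2B gene. In 10 of the pairs the promoter windows of both genes, from 250 bases before to 50 after the start, shared 220 to 279 bases read in opposite directions; the pair H4c6 and H1f3 shared 7. The 4 windows printed here are from RefSeq GRCm38.p6 and show a pair from each side of the histone-free stretch, each gene 5′ to 3′ on its own strand. H2ac22 and H2bc22 share 261 bases, and H2ac8 and H2bc8 share 279. Capitals mark CCAAT and TATAAA on either strand, so that ATTGG and TTTATA are the same motifs read from the other gene.
H2ac22: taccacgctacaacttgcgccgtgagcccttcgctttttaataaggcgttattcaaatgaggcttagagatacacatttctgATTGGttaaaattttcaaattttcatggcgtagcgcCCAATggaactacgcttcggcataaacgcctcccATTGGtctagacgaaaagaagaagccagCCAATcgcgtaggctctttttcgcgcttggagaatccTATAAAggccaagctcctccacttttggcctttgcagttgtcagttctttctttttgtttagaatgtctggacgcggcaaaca
H2bc22: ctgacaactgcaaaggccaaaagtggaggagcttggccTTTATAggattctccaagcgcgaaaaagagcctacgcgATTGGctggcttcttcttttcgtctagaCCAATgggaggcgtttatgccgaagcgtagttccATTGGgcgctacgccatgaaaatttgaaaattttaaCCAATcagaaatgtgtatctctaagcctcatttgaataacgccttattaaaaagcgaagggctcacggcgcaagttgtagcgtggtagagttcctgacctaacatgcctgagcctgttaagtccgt
H2ac8: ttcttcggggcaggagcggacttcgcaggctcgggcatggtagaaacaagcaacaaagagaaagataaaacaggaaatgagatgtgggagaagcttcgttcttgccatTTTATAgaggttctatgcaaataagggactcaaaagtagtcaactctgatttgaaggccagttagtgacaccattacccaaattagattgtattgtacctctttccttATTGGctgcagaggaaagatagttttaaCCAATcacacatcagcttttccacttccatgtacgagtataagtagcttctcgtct
H2bc8: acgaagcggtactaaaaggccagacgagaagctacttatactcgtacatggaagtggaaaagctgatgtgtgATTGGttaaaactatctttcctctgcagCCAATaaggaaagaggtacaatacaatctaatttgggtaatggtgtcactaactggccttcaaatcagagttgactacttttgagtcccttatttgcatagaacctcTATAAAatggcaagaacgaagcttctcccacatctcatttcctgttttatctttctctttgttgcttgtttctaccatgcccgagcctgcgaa
In the pair H2ac22 and H2bc22 the CCAAT motif occurs 4 times between the starts, and in the other pair 2 times. Of the 51 histone genes on the chromosome with a promoter in the table, 43 (84.3%) held CCAAT on either strand, against 37.9% of all 27025 promoters. TATAAA was present in 31 (60.8%), against 14.2% of all. Windows of a divergent pair share bases, so the same motif copy can count for both genes, and the 51 promoters are not independent. Of the 22 genes in such pairs, 21 held CCAAT and 14 held TATAAA. The E2F-type motifs TTTCCCGC and TTTGGCGC occurred in 1 and 0 of the 51 (1.96% and 0%, against 1.11% and 0.537% of all). The B box consensus, the internal element that TFIIIC reads in tRNA genes, occurred in 0 of the 51 and in 0.13% of all. Both strands were searched, none of these motifs contains another, and the matches are letters in a window, not measured sites.

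**Figure D1:**
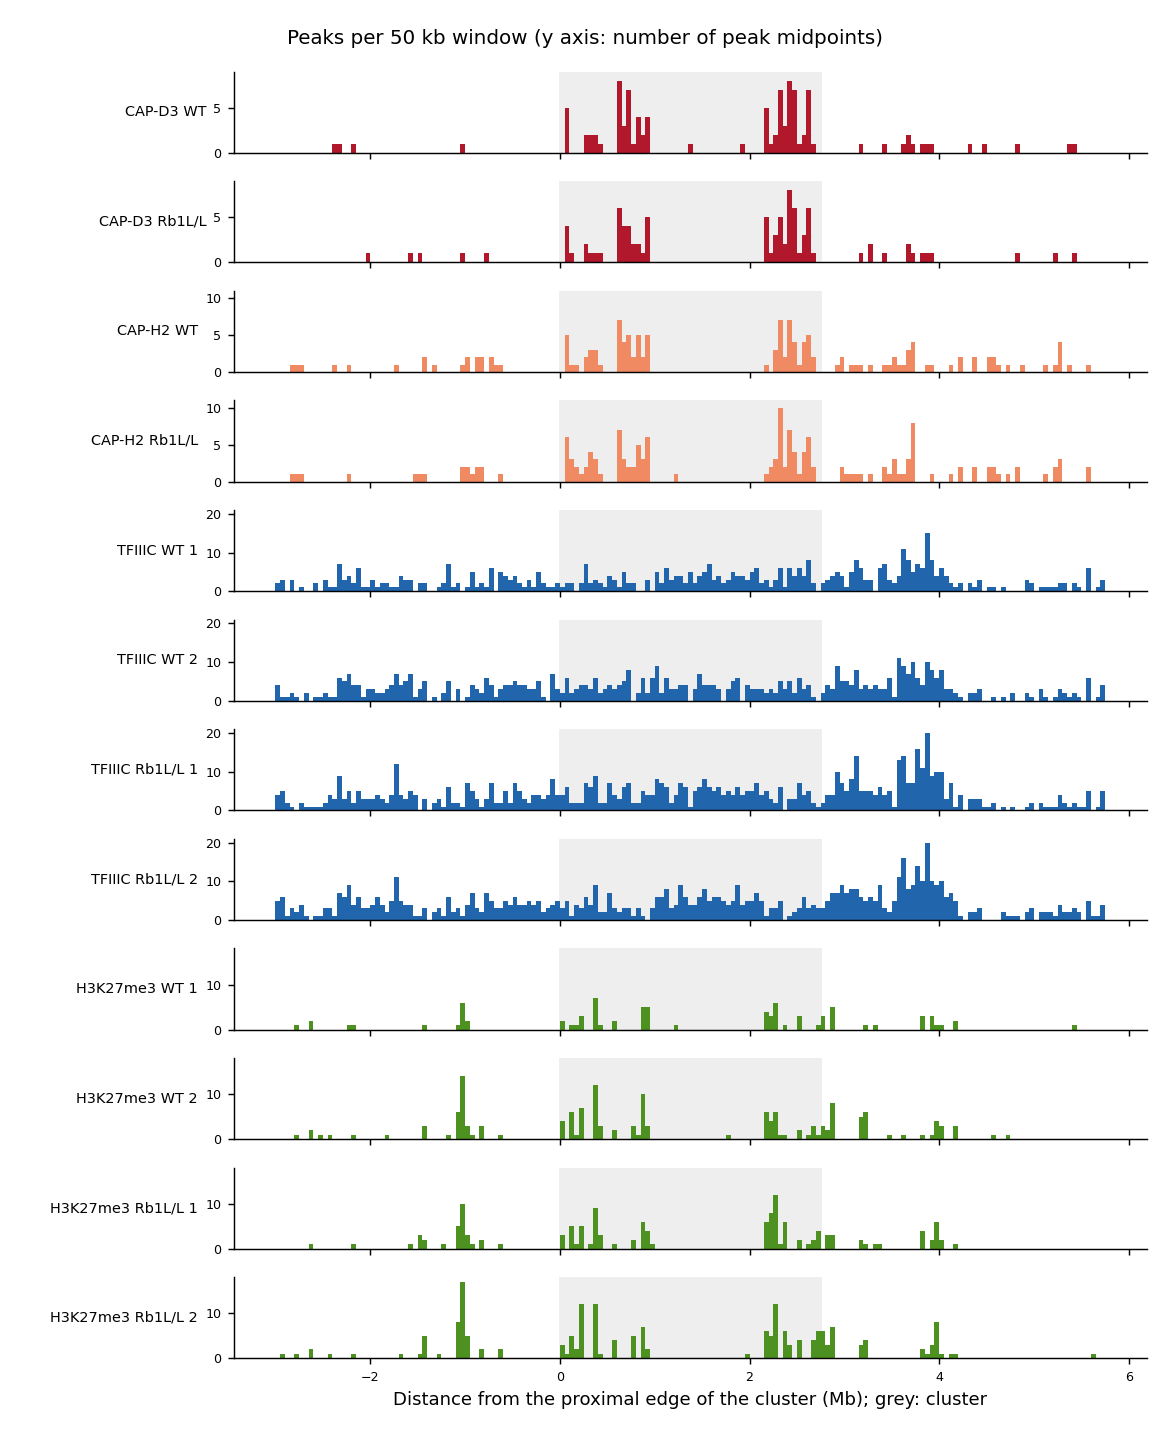
Number of peak midpoints per 50 kb window (y axis) in each of the 12 lists, against distance from the proximal edge of the cluster in Mb, with the cluster in grey and 3 Mb on each side. CAP-D3 and CAP-H2 peaks stand in a block at each end of the cluster with almost none between, H3K27me3 peaks stand near the same ends, and TFIIIC peaks run through the whole cluster.

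Condensin II stood at both ends of the cluster and not in its middle. CAP-D3 peaks numbered 87 in WT (95% exact Poisson interval 69.7 to 107) and 75 in Rb1L/L (59.0 to 94.0). The same stretch held 82 CAP-H2 peaks in WT and 93 in Rb1L/L. All intervals here cover counting error only. Of the 55 windows of 50 kb, 22 had a peak midpoint of both subunits in both genotypes, and 26 had none in any of the 4 condensin II lists. The 22 windows formed 5 runs. The proximal ones were chr13:21250001-21300000, chr13:21450001-21650000 and chr13:21800001-22150000, and the distal ones chr13:23350001-23400000 and chr13:23450001-23900000. The last of these is the longest, at 450 kb.

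Peaks were concentrated in few windows for each subunit. The 5 fullest windows held 42.5% and 41.3% of the CAP-D3 peaks of WT and Rb1L/L, and 37.8% and 38.7% of the CAP-H2 peaks. The CAP-D3 window with the largest covered length, chr13:23600001-23650000, held 8 peaks in each genotype (7.74 kb covered in WT and 8.03 kb in Rb1L/L), and 7 CAP-H2 peaks in each. For CAP-H2 the first window was chr13:23800001-23850000, with 17.6 kb covered in WT and 15.6 kb in Rb1L/L. On the proximal side, chr13:21800001-21850000 was among the 5 first windows of both subunits, with 8 and 6 CAP-D3 peaks and 7 and 7 CAP-H2 peaks. Across the 55 windows the mean peak number of CAP-D3 followed that of CAP-H2 with a Spearman rho of 0.92. The genotypes followed each other with a rho of 0.94 for each subunit. The subunits of a genotype share a fixation and an input, and windows share the same sequence in all lists, so these values are descriptions.

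The middle of the cluster was almost free of condensin II. Merging the 4 condensin II lists gave 114 regions in the cluster, and 38 of them (33.3%) had a peak in all 4 lists, against 9.43% of the 62050 condensin II regions of the genome. These 38 are 0.649% of the 5852 such regions of the genome, on 0.104% of its placed sequence. The largest gap between neighbours among the 38 was 1233 kb, at chr13:22143645-23376791, and the next gaps were 220 and 198 kb. It leaves a proximal part of 944 kb with 16 of the regions and a distal part of 573 kb with 22. Within the parts the regions were close: the median gap was 9.36 kb, and 19 of the 36 gaps were under 10 kb. In the gap itself, CAP-D3 had 3 peaks in WT and 1 in Rb1L/L, and CAP-H2 had 0 and 1. The gap was chosen by condensin II peaks, so their scarcity in it is a description.

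H3K27me3 was also scarce in the gap and TFIIIC was not, and neither mark was used to choose it. The 4 H3K27me3 lists had 2 and 3 peaks there in WT and 4 and 3 in Rb1L/L, against 44, 75, 79 and 98 in the outer parts. TFIIIC had 92 and 91 peaks in WT and 131 and 134 in Rb1L/L. Per Mb this was 74.6 and 73.8 in WT and 106 and 109 in Rb1L/L in the gap, against 55.4 and 67.9 in WT and 77.1 and 62.6 in Rb1L/L outside it. The TFIIIC density was thus higher in the gap than in the outer parts in 4 of 4 lists. The ratios were 1.35-fold and 1.09-fold in WT and 1.38-fold and 1.74-fold in Rb1L/L, and no counting interval was computed for them. Over all placed chromosomes the density was 74.9 and 90.6 per Mb in WT and 111 and 114 in Rb1L/L. The gap was therefore not denser in TFIIIC than the genome in any list.

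**Figure D2:**
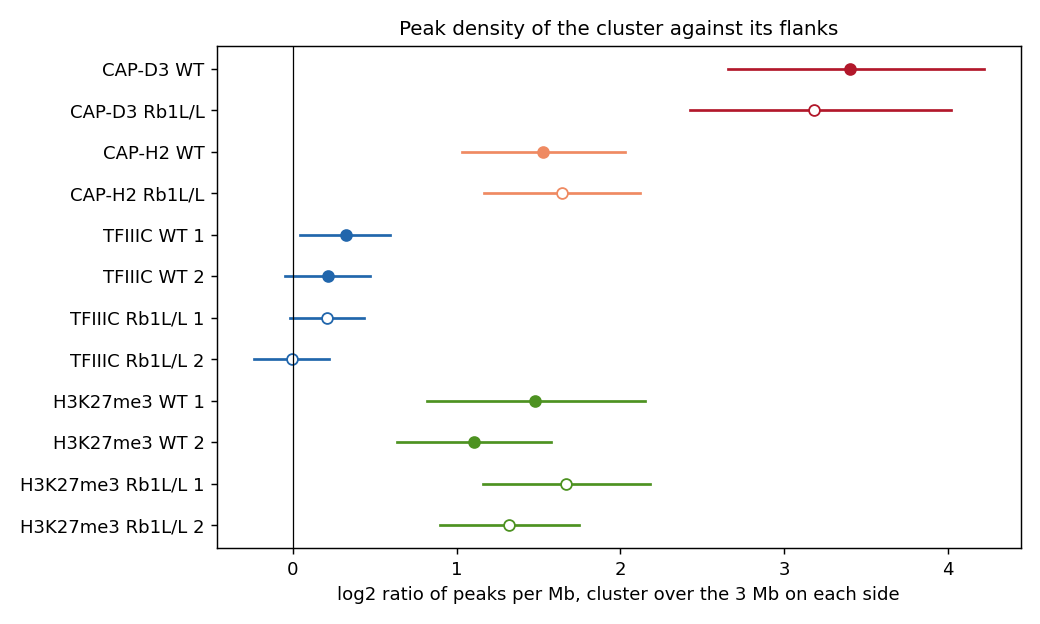
Log2 ratio of peaks per Mb in the cluster to peaks per Mb in the 3 Mb on each side (x axis) for each list, filled circles for WT and open circles for Rb1L/L, with 95% exact intervals for counting error as bars. Both CAP-D3 lists lie above 3, both CAP-H2 lists and all H3K27me3 lists between 1 and 2, and the TFIIIC lists between -0.01 and 0.32.

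Against its surroundings the cluster stood out most in CAP-D3. The density was 31.6 CAP-D3 peaks per Mb in the cluster and 3 in the flanks in WT, a log2 ratio of 3.40 (95% interval 2.65 to 4.22). In Rb1L/L it was 27.3 and 3 per Mb, a log2 ratio of 3.18 (2.43 to 4.01). The flanks were unequal: the proximal 3 Mb held 4 and 5 CAP-D3 peaks, and the distal 3 Mb held 14 and 13. For CAP-H2 the log2 ratio was 1.53 (1.04 to 2.03) in WT, from 29.8 against 10.3 peaks per Mb, and 1.64 (1.17 to 2.12) in Rb1L/L, from 33.8 against 10.8. With 18 CAP-D3 peaks in the flanks of either list, the size of that ratio rests on few flank peaks.

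H3K27me3 peaks were denser in the cluster than in its flanks in all 4 lists, and TFIIIC peaks differed little. The H3K27me3 lists held 46 and 78 peaks in the cluster in WT and 83 and 102 in Rb1L/L, with log2 ratios to the flanks of 1.48, 1.11, 1.67 and 1.32. Each of the 4 intervals lay above 0. TFIIIC peaks numbered 176 and 194 in WT and 248 and 229 in Rb1L/L. Their log2 ratios were 0.32 (0.05 to 0.59), 0.21 (-0.05 to 0.47), 0.21 (-0.02 to 0.43) and -0.01 (-0.24 to 0.22), so in 3 of the 4 lists the density did not differ from that of the flanks beyond counting error. Set against all placed chromosomes, TFIIIC peaks were less dense in the cluster, at 0.855-fold and 0.779-fold in WT and 0.814-fold and 0.731-fold in Rb1L/L. By that reference H3K27me3 peaks were denser, at 1.79-fold and 1.63-fold in WT and 1.81-fold and 1.74-fold in Rb1L/L. These are smaller than the folds over the flanks, which were 2.79 and 2.15 in WT and 3.18 and 2.50 in Rb1L/L.

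**Figure D3:**
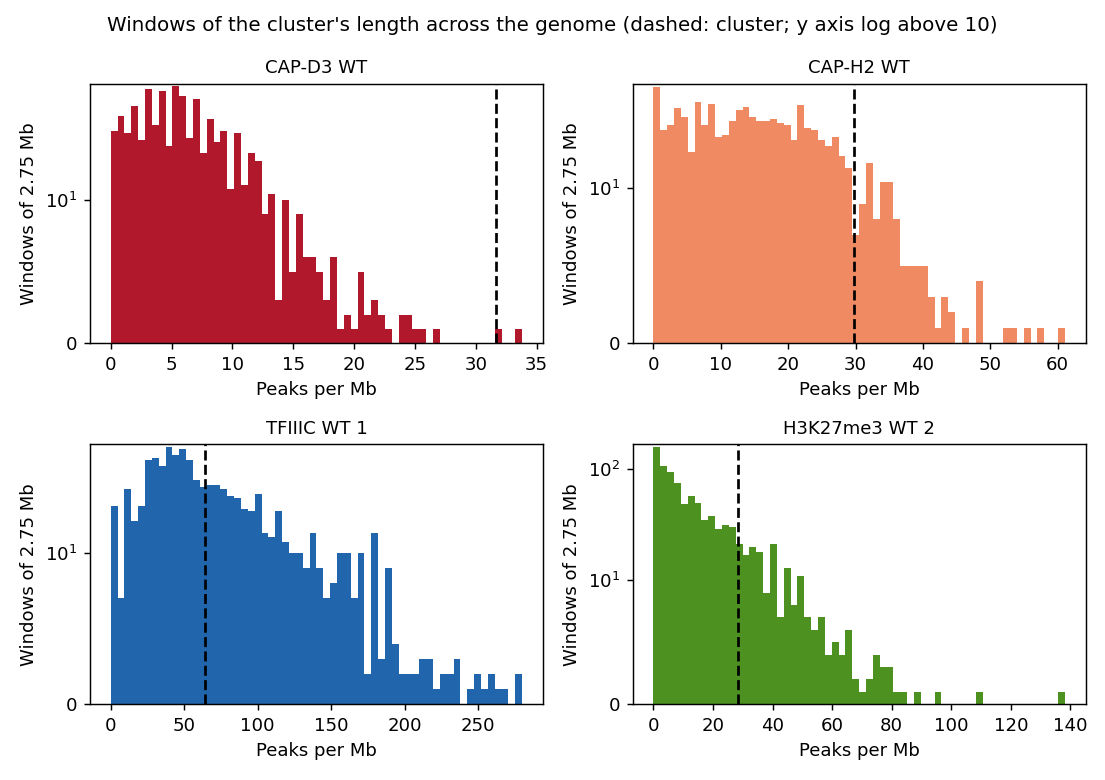
Number of windows of 2.75 Mb across the placed chromosomes (y axis, logarithmic above 10) by their peaks per Mb (x axis), for 1 list of each antibody, with the cluster as a dashed line. The cluster is at the far right for CAP-D3, in the upper range for CAP-H2 and H3K27me3, and in the middle for TFIIIC.

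Among 952 windows of the same length tiled over the placed chromosomes, 1 held more CAP-D3 peaks than the cluster in WT, and 1 did in Rb1L/L. The median window held 16 CAP-D3 peaks in WT and 11 in Rb1L/L. For CAP-H2, 105 windows held more in WT and 76 in Rb1L/L. The cluster exceeded 78.7% to 81.4% of windows in the H3K27me3 lists, and 48.1% to 53.5% in the TFIIIC lists. The place of the cluster is thus extreme for one condensin II subunit, high for the other and for H3K27me3, and ordinary for TFIIIC.

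The CAP-D3 peaks of the cluster also had high scores. The score is the authors' value for a peak, larger for a smaller p-value and used only within a list. In WT the median was 779 in the cluster and 358 in the whole list, and in Rb1L/L it was 1067 and 740. Many scores are tied at 3100, the usual top value. That value or more was reached by 17 of the 87 WT peaks (19.5%, against 12.6% of the list) and by 22 of the 75 Rb1L/L peaks (29.3%, against 19.2%). CAP-H2 medians were 205 against 140 in WT and 301 against 194 in Rb1L/L. For TFIIIC and H3K27me3 the order was the other way in each of the 8 lists, as in TFIIIC WT replicate 1 (158 in the cluster, 173 in the list) and H3K27me3 WT replicate 1 (233 and 262). CAP-D3 and CAP-H2 peaks were also wider here, with medians of 747 and 1210 bp in WT against 642 and 904 bp in the whole lists.

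CAP-D3 regions of the cluster were mostly found in both genotypes. Of 88 merged CAP-D3 regions, 62 (70.5%, 95% exact binomial interval 59.8 to 79.7) had a peak in WT and in Rb1L/L, against 43% of the genome's regions. WT alone had 18 (20.5%, against 38.5%) and Rb1L/L alone had 8 (9.09%, against 18.5%). For CAP-H2, 62 of 98 regions (63.3%, 52.9 to 72.8) were in both, against 53.9%, which lies within that interval. WT alone had 16 (16.3%, against 22.9%) and Rb1L/L alone had 20 (20.4%, against 23.2%). Regions called in 1 genotype had lower scores: the median CAP-D3 score in WT was 1107 for the 62 regions in both and 227 for the 18 others, and in Rb1L/L it was 1380 and 299. For CAP-H2 these medians were 353 and 86.8 in WT and 565 and 93.3 in Rb1L/L. A region called in one genotype alone has no second library to check it. The score of a merged region is that of its highest peak. A weak region can also fall under the calling limit in the other list, so the lower scores are a description.

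The strongest shared CAP-D3 regions lay in both parts of the cluster. A score of 3100 or more in both genotypes was shared by 17 regions. CAP-H2 was called in both genotypes at 14 of these and in neither at 2. These scores do not rank them further, so 5 regions are named by mean score and then by width, all with a CAP-H2 peak in both genotypes. They were chr13:23665593-23668558, chr13:21924590-21927368, chr13:21900378-21903034, chr13:21870559-21873065 and chr13:23376792-23378840. The first named had a TFIIIC peak in all 4 TFIIIC lists, the last in none, and none of the 5 had H3K27me3. Among shared CAP-H2 regions the first was chr13:23536985-23539039, with 3100 in both genotypes and a CAP-D3 peak in both. The next, chr13:21532180-21533649, had CAP-H2 scores of 3028 in WT and 2979 in Rb1L/L and no CAP-D3 peak in either genotype.

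The highest scores among regions of 1 genotype were lower than those of the shared regions named above. CAP-D3 regions of WT with no Rb1L/L peak within 1 kb numbered 16, led by chr13:21545314-21545781 with a score of 786, which had CAP-H2 in both genotypes. The converse ones numbered 7, led by chr13:22120605-22121347 with a score of 483, also with CAP-H2 in both. Of CAP-H2, 14 regions of WT alone were led by chr13:23609055-23610317 (score 209, CAP-D3 in both genotypes), and 17 of Rb1L/L alone by chr13:23545178-23545841 (score 202, no CAP-D3).

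The 38 regions with all 4 condensin II lists were broad. Their median width was 2427 bp, against 1633 bp for such regions of the genome, and 13 of them (34.2%) exceeded 3 kb, against 10.3%. The widest, chr13:23830360-23842077, spanned 11.7 kb, with CAP-D3 scores of 3100 in both genotypes and CAP-H2 scores of 1921 in WT and 2989 in Rb1L/L. A merged width grows where neighbouring peaks touch, so it is no measure of a single site.

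**Figure D4:**
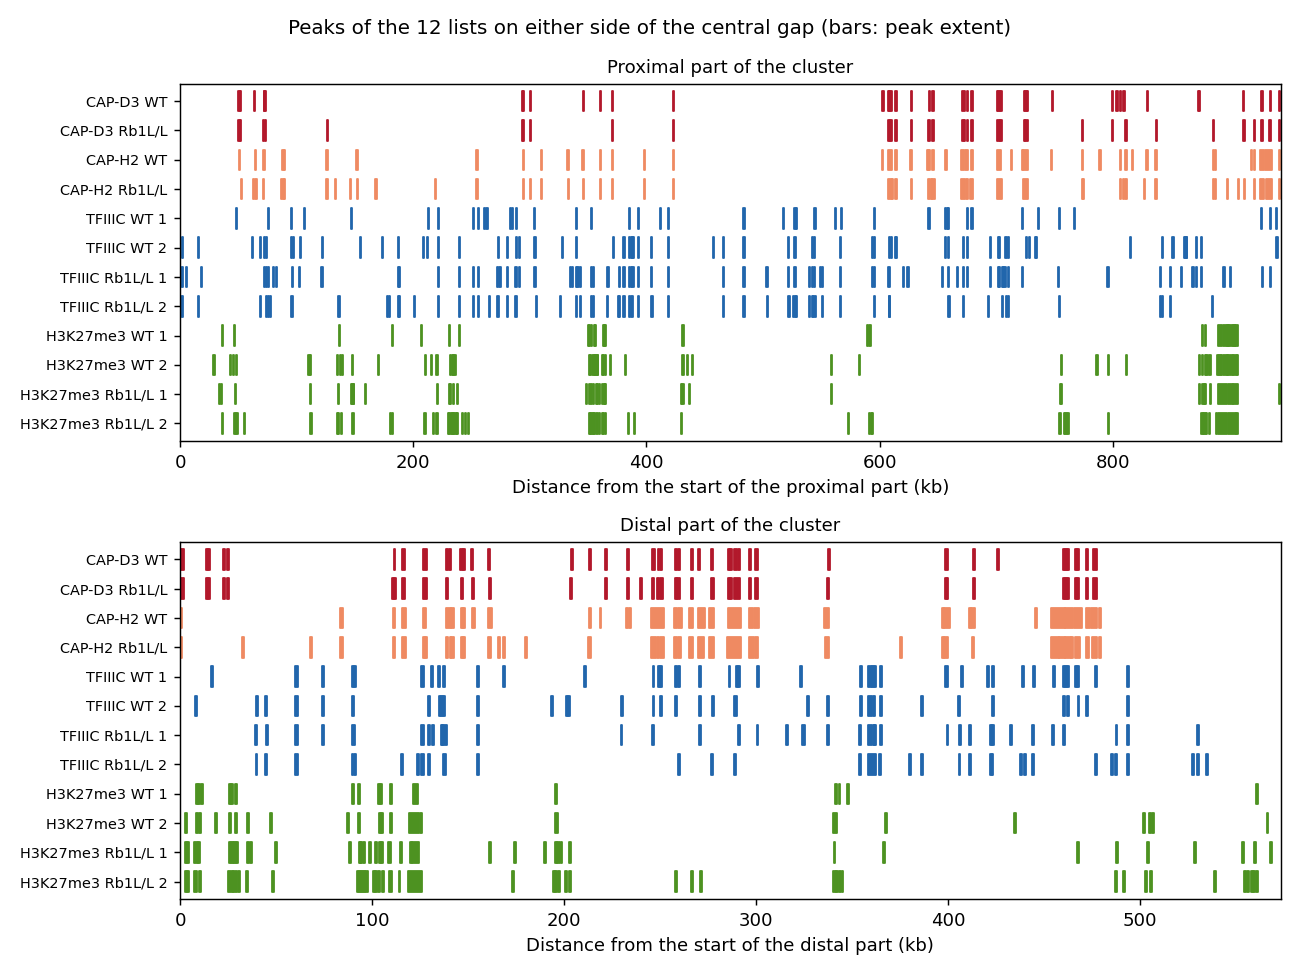
Peaks of the 12 lists as bars on the proximal and the distal part of the cluster, with distance in kb from the start of each part on the x axis and 1 row per list. Many CAP-D3 and CAP-H2 bars stand at the same places in both genotypes, and the H3K27me3 block near 900 kb of the proximal part has no condensin II bar in WT and 2 CAP-H2 bars in Rb1L/L.

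Most CAP-D3 peaks of the cluster carried CAP-H2. In WT, 67 of 87 CAP-D3 peaks (77.0%, 66.8 to 85.4) overlapped a CAP-H2 peak by at least 1 bp, against 33.3% of 18 flank peaks (13.3 to 59.0) and 55.2% of the whole list. In Rb1L/L it was 61 of 75 (81.3%, 70.7 to 89.4), against 65.4% of the list and 55.6% of 18 flank peaks (30.8 to 78.5), whose interval overlaps that of the cluster. Seen from CAP-H2, 52 of 82 peaks in WT (63.4%) and 52 of 93 in Rb1L/L (55.9%) overlapped CAP-D3, against 21.7% and 19.8% of the whole lists and 9.68% and 13.8% in the flanks. The share with CAP-D3 was thus higher in the cluster than in the flanks or the genome by more than the counting intervals in both genotypes. Both subunits were themselves denser in the cluster than in the flanks. For CAP-D3 this was 10.5-fold in WT and 9.09-fold in Rb1L/L, and for CAP-H2 2.89-fold and 3.12-fold. Whether the shares of overlap exceed what these densities give was not tested.

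H3K27me3 and condensin II shared windows, and few of their peaks overlapped. Of the 22 windows with both subunits in both genotypes, 8 also had H3K27me3 in all 4 lists and 6 had it in none. In WT, 0 and 1 of the 87 CAP-D3 peaks met a peak of H3K27me3 replicates 1 and 2, and 0 and 1 of the 82 CAP-H2 peaks did. By the rule of 3 counts over the total, a count of 0 allows a share of up to 3.45% of CAP-D3 and 3.66% of CAP-H2 peaks; the exact binomial upper bounds are 4.15% and 4.40%. Whole-list shares were 4.36% and 6.08% for CAP-D3 and 1.09% and 1.79% for CAP-H2. In Rb1L/L, 3 and 4 of 75 CAP-D3 peaks met H3K27me3 (4% and 5.33%, against 7.96% and 6.60% of the whole list). Of the 93 Rb1L/L CAP-H2 peaks, 6 (6.45%, lower bound 2.40) and 4 (4.30%, lower bound 1.18) did, against 2.31% and 1.71%. The lower bound of the first share was only just above the share of the list, and that share rests on 6 peaks. It was 2.78% at a score of at least 100, and 0% with at least 50% of the condensin II peak covered. Of the 38 regions with all 4 condensin II lists, 6 had an H3K27me3 peak in any list (15.8%, against 10.2% of such regions of the genome), each in 1 list, and 0 had it in all 4 lists (against 2.00%). The WT H3K27me3 lists had 0 and 0 of these 6 and the Rb1L/L lists 3 and 3. The lists of Rb1L/L were longer than the WT list of the same replicate number, and whether list length moves these counts was not tested.

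Most H3K27me3 regions of the cluster were narrow and seen in 1 list, and a few were broad. Of 141 merged regions in the cluster, 16 (11.3%, 6.63 to 17.8) had a peak in all 4 lists, against 8.39% of the genome's, and 90 had a peak in 1 list. Median peak width was 628 to 669 bp, against 624 to 645 bp in the whole lists. The first region of all 4 lists, chr13:22089623-22107383, spanned 17.8 kb and had scores of 3016 and 2844 in WT and 3100 and 3199 in Rb1L/L. It lies within the longest proximal condensin II run, with 3 regions of all 4 condensin II lists beyond it. It was overlapped by 2 CAP-H2 peaks in Rb1L/L and by 0 in WT. The second, chr13:23495399-23502756, had scores of 1266 and 902 in WT and 2553 and 1642 in Rb1L/L, with no condensin II peak. The other 3 of the 5 first, chr13:22075884-22079979, chr13:21550351-21558843 and chr13:23383895-23388229, had no condensin II peak either. By window, chr13:22050001-22100000 was covered most, with 9.77 and 13.6 kb in WT and 14.0 and 15.3 kb in Rb1L/L. The lists followed each other over the 55 windows with rho values of 0.81 to 0.90.

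TFIIIC ran through the whole cluster. Each of the 55 windows had a TFIIIC peak in some list, and 44 had one in all 4. In 19 windows all 4 TFIIIC lists had a peak while no condensin II or H3K27me3 list did. Over the windows the TFIIIC lists followed each other less closely than those of the other antibodies, with rho values of 0.31 to 0.67. The lowest was between the 2 WT lists and the highest between the 2 Rb1L/L lists. Pairs of a WT and an Rb1L/L list had 0.35 to 0.61, so the WT lists were less alike than any such pair. Windows empty in every list enter such values as agreement: 26 windows had no condensin II and 0 had no TFIIIC. By merged region the TFIIIC lists were not less alike than the H3K27me3 lists, of whose regions 11.3% had a peak in all 4. Of 400 merged regions, 61 (15.3%, 11.9 to 19.2) had a peak in all 4 lists, against 17.8% of the genome's, and 171 had a peak in 1 list. The window with the largest covered length, chr13:22300001-22350000 in the central gap, held 6 and 6 peaks in WT and 6 and 8 in Rb1L/L.

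The strongest TFIIIC regions lay away from condensin II. The first was chr13:22640461-22642315, in the central gap, with scores of 1339 and 2574 in WT and 2876 and 3100 in Rb1L/L. The second and the third, chr13:22207475-22209707 and chr13:22514338-22516219, also lay in the gap, as did the fifth, chr13:22321882-22324955. The fourth, chr13:23735107-23739125, lay in the distal part. None of the 5 had a condensin II or H3K27me3 peak in any list. The gap was chosen by condensin II peaks, so few regions inside it could meet condensin II. Whether these are tRNA genes cannot be read from the files, which hold no gene positions.

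**Figure D5:**
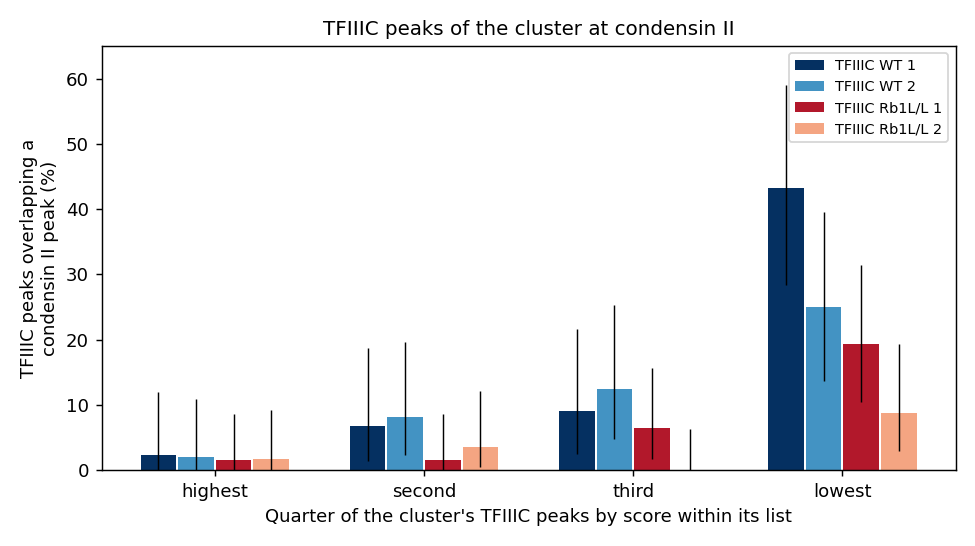
Percent of the cluster's TFIIIC peaks that overlap a condensin II peak of the same genotype (y axis), by class of score within each list (x axis, highest to lowest), with 95% exact binomial intervals as bars. In each of the 4 lists the lowest class has the largest share, from 8.77% to 43.2%.

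TFIIIC peaks that met condensin II were mostly low in score. Of the cluster's TFIIIC peaks, 27 of 176 (15.3%) and 23 of 194 (11.9%) in WT overlapped a condensin II peak of the same genotype. In Rb1L/L it was 18 of 248 (7.26%) and 8 of 229 (3.49%). The whole lists gave 6.38% and 5.44% (WT) and 3.80% and 3.77% (Rb1L/L). The cluster was above its list by more than the counting interval in 3 of the 4 lists and not in Rb1L/L replicate 2 (1.52 to 6.77). Condensin II peaks were themselves denser in the cluster than over all placed chromosomes. For CAP-D3 this was 4.75-fold in WT and 5.44-fold in Rb1L/L, and for CAP-H2 1.84-fold and 2.07-fold. Whether the higher shares exceed what this density gives was not tested. With the peaks of each list in 4 equal classes by score, the highest class had 1 such peak in every list. The lowest class had 19 of 44 (43.2%, 28.3 to 59.0) and 12 of 48 (25.0%, 13.6 to 39.6) in WT, and 12 of 62 (19.4%, 10.4 to 31.4) and 5 of 57 (8.77%, 2.91 to 19.3) in Rb1L/L. Over the whole genome the classes differed less: in TFIIIC WT replicate 1 the highest had 7.25% and the lowest 8.80%. The intervals of the highest and the lowest class did not overlap in the 2 WT lists and in Rb1L/L replicate 1, and did in Rb1L/L replicate 2. The central gap, chosen by condensin II peaks, held 92 and 91 of these TFIIIC peaks in WT and 131 and 134 in Rb1L/L. Median TFIIIC scores in the gap were 186 and 326 in WT and 221 and 245 in Rb1L/L. In the proximal part they were 141, 226, 163 and 266, and in the distal part 109, 211, 151 and 236. The order by score was not examined in the outer parts alone.

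Seen from condensin II, the share with TFIIIC was near that of the genome in WT. In WT, TFIIIC replicates 1 and 2 met 27.6% and 24.1% of the CAP-D3 peaks, against 28.6% and 27% of the whole list. In Rb1L/L it was 22.7% (13.8 to 33.8) and 10.7% (4.72 to 19.9), against 21.3% and 20.9%. CAP-H2 gave 23.2% and 23.2% in WT, against 24.0% and 24.5%, and 17.2% and 7.53% in Rb1L/L, against 22.1% and 22.2%. Against the genome, the lower values therefore came with Rb1L/L replicate 2, for which the genome share lay outside the interval for both subunits. In the flanks, TFIIIC replicate 1 met 11.3% of WT and 3.08% of Rb1L/L CAP-H2 peaks, and replicate 2 met 11.3% and 9.23%. The CAP-H2 share was thus higher in the cluster than there, except with Rb1L/L replicate 2. Of 18 CAP-D3 flank peaks per genotype, replicate 1 met 33.3% and 16.7%, and replicate 2 met 27.8% and 22.2%. The CAP-D3 share was higher in the cluster only with Rb1L/L replicate 1. In each case the intervals of cluster and flanks overlapped. These overlaps join chromatin fixed in different ways.

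The 38 regions with all 4 condensin II lists differed from one another in TFIIIC. A TFIIIC peak was present at 15 and 15 regions in the WT lists and at 14 and 7 in the Rb1L/L lists, or 39.5%, 39.5%, 36.8% and 18.4%, against 53.5%, 49.3%, 35.3% and 34.4% in the genome. The share was below that of the genome in 3 of the 4 lists and above it in Rb1L/L replicate 1. No counting interval was computed for these shares of 38 regions, so whether they differ from the genome beyond counting error is not shown. All 4 TFIIIC lists met at 2 of the 38 (5.26%, against 19.7%), chr13:21869653-21875683 and chr13:23661766-23669232. Both WT lists met at 6 (15.8%, against 37.4%) and both Rb1L/L lists at 4 (10.5%, against 24.7%). No TFIIIC peak was present at 13 (34.2%, against 29.9%). No region had a peak in all 12 lists, against 1.23% of the genome's regions.

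Between genotypes, the condensin II peaks of the cluster did not differ in number beyond counting error. The log2 ratio of Rb1L/L to WT was -0.21 (95% interval -0.68 to 0.25) for CAP-D3, where the whole list gave -0.41, and 0.18 (-0.26 to 0.63) for CAP-H2, where it gave 0.01. A single list per genotype allows no test of the genotype.

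The ratio of the cluster to its flanks did not part the genotypes by more than the design can show. For TFIIIC the log2 ratio was 0.27 ± 0.08 in WT and 0.10 ± 0.15 in Rb1L/L (SD, n = 2 each). The difference was -0.17 ± 0.12 (SE; two-sided exact permutation p = 0.333, the smallest that 2 libraries against 2 can give). Both Rb1L/L libraries were below both WT libraries, though by little in replicate 1 (0.21 against 0.21 in WT replicate 2). For H3K27me3 it was 1.29 ± 0.26 in WT and 1.49 ± 0.24 in Rb1L/L (SD, n = 2 each), and the groups overlapped. The difference was 0.20 ± 0.25 (SE; two-sided exact permutation p = 0.667). Peak numbers in the cluster were higher in both Rb1L/L libraries than in both WT libraries for TFIIIC (1.29-fold) and H3K27me3 (1.54-fold), each at p = 0.333 (exact permutation, two-sided). As a share of each library's peaks the groups overlapped, with log2 differences of -0.08 for TFIIIC and 0.06 for H3K27me3 (two-sided exact permutation p = 0.667 for each).

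Regions called in both libraries of one genotype and none of the other were rarer than those of single libraries. For TFIIIC, 11 regions had WT alone (2.75%, 1.38 to 4.87, against 1.61%) and 36 Rb1L/L alone (9%, against 9.37%). Of the 9 WT regions with no Rb1L/L peak within 1 kb, the first was chr13:22381519-22382245 (scores 212 and 234), and the fifth, chr13:23626900-23627997 (108 and 508), had all 4 condensin II lists. The 27 converse regions were led by chr13:21702756-21704016 (875 and 525), with no condensin II. For H3K27me3, 0 regions had WT alone (against 0.736%) and 10 had Rb1L/L alone (7.09%, 3.45 to 12.7, against 5.18%). The shares with one genotype alone were within the counting interval of the genome's share for both antibodies.

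No 50 kb window of the cluster changed its share of peaks between genotypes at a limma adjusted p under 0.05. For TFIIIC, 0 of the 35 windows tested were called, against 0% of 28462 windows of the genome, and 2 had an unadjusted limma p under 0.05. The window with the lowest p, chr13:23600001-23650000, held 6 and 5 TFIIIC peaks in WT and 3 and 1 in Rb1L/L, a log2 difference in share of -1.83 ± 0.55 (SE, limma adjusted p = 0.405). It is also the window with the most covered CAP-D3. The window with the lowest p among those higher in Rb1L/L, chr13:22250001-22300000, held 2 and 2 peaks in WT and 7 and 6 in Rb1L/L (1.03 ± 0.40, limma adjusted p = 0.525) and has no condensin II. For H3K27me3, 0 of 16 windows were called, against 0% of 6764, and 1 had an unadjusted limma p under 0.05. This was chr13:23550001-23600000, with 1 and 1 peaks in WT and 6 and 6 in Rb1L/L (1.55 ± 0.65, limma adjusted p = 0.957).

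The number of TFIIIC windows called depended on the WT libraries, over the genome as in the cluster. Without WT replicate 1, limma called 2 of 40 windows of the cluster (background 3.03%), and without WT replicate 2, 3 of 37 (background 10.7%), so few windows of the cluster were called in either fit. Those fits leave a single WT library, which is assumed to vary like the Rb1L/L libraries. Both Rb1L/L libraries lay above both WT libraries in 10 of the 35 TFIIIC windows (background 19.5%) and below them in 5 (background 20.4%). For H3K27me3 it was 2 of 16 above (background 20.5%) and 3 of 16 below (background 13%).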

How the data were processed

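The 12 immunoprecipitated libraries of MEFs were analysed as the peak lists the authors deposited, 1 per library; the 8 inputs have no list here. The submitters' processing notes name Bowtie2 2.3.0, MACS 1.4.0rc2 and the build mm9, without settings. The fifth column of each deposited list was taken as the authors' score per peak, which this caller writes as minus 10 times the log10 of a p-value; the lowest in a list was 50 to 50.4. Read numbers are not given in the sources used here, so depth is unknown; a longer list can hold weaker peaks. Per the titles, CAP-D3, CAP-H2 and 1 H3K27me3 library of each genotype have a common input (H3K27me3 replicate 2 in WT, replicate 1 in Rb1L/L).

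Lists held 17576 (WT) and 13233 (Rb1L/L) CAP-D3 peaks, 42737 and 43151 CAP-H2 peaks, 200350 to 301874 TFIIIC peaks and 24741 to 56396 H3K27me3 peaks. Peaks overlapping the cluster were counted against the 3 Mb on each side, in 50 kb windows by midpoint, and merged across lists where they overlapped by 1 bp. Windows were compared with limma 3.58.1 (trended moderated variance; log2 of peaks per 1000 plus a pseudocount of 0.5 peaks; a mean of at least 3 TFIIIC or 2 H3K27me3 peaks; Benjamini-Hochberg threshold 0.05 over the genome) in R 4.3.3. Single values were compared with two-sided exact permutation tests in scipy 1.17.1. Intervals are exact Poisson and Clopper-Pearson. Overlap code was tested on simulated peaks. Coordinates are 1-based. Gene names, gene order and promoters came from RefSeq GRCm38.p6, whose coordinates were not used.

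Regions named are, per antibody, those first by the lowest score over its libraries (5 of every library, 5 per genotype with no peak of the other within 1 kb), regions of all condensin II and TFIIIC lists, and windows by covered length or limma p. The members and lists were chosen with earlier results of these data known. Alternatives were a score of at least 100, covered length, whole-genome and 1 Mb references, midpoints, other overlap rules, window filters, a pseudocount of 2 peaks, 100 kb windows, left-out replicates and a replicate block.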

Additional observations from a re-analysis of the deposited data

How the results depend on the processing

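Of 132 recomputed values, 96 were counted as unchanged. For the differences between genotypes in the ratio to the flanks, the same sign was enough for this, whatever the size. The other values had to stay near their main value. Against all placed chromosomes in place of the flanks, the log2 ratio fell to 2.25 in WT and 2.44 in Rb1L/L for CAP-D3 and to 0.88 in WT and 1.05 in Rb1L/L for CAP-H2; with 1 Mb flanks the CAP-H2 ratios were 0.99 and 0.99, and by covered length 2.43 and 2.49. Tiling shifted along each chromosome, an alternative chosen after seeing the data, left 0 windows with more CAP-D3 peaks than the cluster in WT and 0 in Rb1L/L. The cause was not tested.

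Leaving out each replicate gave 0 to 3 called TFIIIC windows and 0 called H3K27me3 windows (limma). The difference between genotypes in the log2 ratio to the flanks ranged from -0.28 to -0.06 for TFIIIC and from 0.02 to 0.39 for H3K27me3. Replicate numbers are shared by the genotypes, but the labels do not pair the libraries, and same-numbered libraries deviated together with a correlation of 0.10 (TFIIIC) and 0.19 (H3K27me3) over windows. With a replicate block the differences were -0.17 and 0.20 (exact p = 0.5 each, the smallest that 2 pairs can give), and limma called 0 windows of the cluster for either antibody, with 348 TFIIIC and 22 H3K27me3 windows over the genome.

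Each overlap share was recomputed under several alternatives. Of the 60 recomputed values, 35 stayed within the interval of the main share. At a score of at least 100, CAP-D3 with CAP-H2 was 64.4% and with TFIIIC replicate 1 12.6% in WT, CAP-H2 with CAP-D3 was 66.7% in Rb1L/L, and overlaps with H3K27me3 replicate 2 were 0% for both subunits in WT and for CAP-H2 in Rb1L/L. With at least 50% of the condensin II peak covered, CAP-D3 with TFIIIC was 17.2% (WT replicate 1), 6.67% and 4.00% (Rb1L/L), and with H3K27me3 0% and 1.33% in Rb1L/L. By that rule CAP-H2 overlapped CAP-D3 in 40.2% (WT) and 38.7% (Rb1L/L), TFIIIC in 2.44% and 2.44% in WT and 0% and 0% in Rb1L/L, and H3K27me3 in 0% in WT replicate 2 and in both Rb1L/L lists. With a gap of up to 1 kb, CAP-D3 with TFIIIC was 36.8% (WT replicate 2) and 20% (Rb1L/L replicate 2) and with H3K27me3 12% (Rb1L/L replicate 1); CAP-H2 with TFIIIC was 16.1% and with H3K27me3 11.8% (Rb1L/L replicate 2 each). The unknown depth limits every comparison of peak numbers between lists.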
